A study of Homo sapiens with 18 samples.

Results

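The zinc finger genes described here are those named ZNF with a number that lie on the autosomes other than chromosome 19, the chromosome that holds the largest share of the family. They were chosen by name, by chromosome and by level: a fragments per kilobase of transcript per 1000000 mapped fragments (FPKM) value of at least 0.5 in at least 3 of the 18 libraries. Of 253 such genes in the table, 198 met the level and 55 did not, and 13 of those 55 were at 0 in every library. The table listed 55128 genes, of which 12108 met the same level, and a further 200 of these were ZNF genes of chromosome 19. RNA came from T98G cells, a human glioblastoma line, 2 h after addition of the solvent DMSO, gnetin H (GH, an oligostilbene) at 8 µM, 2-deoxyglucose (2DG, a glucose analogue that blocks glycolysis) at 10 mM in the labels and methods, although the text of the study also names a higher dose, phenformin (Phen, a biguanide that inhibits complex I of the respiratory chain) at 100 µM, GH plus phenformin (GH+Phen) or 2DG plus phenformin (2DG+Phen). Each of the 6 groups had 3 libraries, labelled biological replicates A, B and C. The design asks how glycolysis inhibitors change transcripts alone and with an inhibitor of mitochondrial respiration. All groups share 1 cell line and 1 time point, and GH was given at 1 dose.

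ZNF genes encode proteins with arrays of C2H2 zinc fingers, each finger contacting a few bases of DNA, so that long arrays can recognise long sites. Many carry an N-terminal KRAB domain, which binds TRIM28 (KAP1) and through it the histone methyltransferase SETDB1 and HP1 proteins, and silences transposable elements and some genes. Others lack KRAB and act as activators, as parts of chromatin complexes or in RNA metabolism, and genes of the KRAB class often lie side by side as products of tandem duplication.

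Between 18417756 and 22497604 fragments were mapped per library (median 20304455). The median member had 250 fragments in a library, the range was 8 to 7015, and 2 of 3564 values were under 10 fragments. The libraries differed in how their levels depended on the GC content of the transcripts. The slope on GC content, in log2 units per 10 percentage points, was 0.05 in DMSO C against -0.32 and -0.25 in the other DMSO libraries, and -0.21 in GH+Phen A against 0.25 and 0.24 in the other GH+Phen libraries. DMSO C and GH+Phen A thus stood apart from their own groups, and results that turn on them are given with and without them below. The line expressed VIM, CD44, FN1 and SPARC, while NES, SOX2, GFAP, S100B and OLIG2, also markers of glioblastoma, were at or near 0. Of 16 markers of other cell types, 2 reached the level filter (CD68 and SNAP25) and 5 were at 0 in every library. The summed FPKM of the 16 was 9.58 to 16.9 in DMSO, 14.6 to 20.4 in GH, 9.89 to 12.3 in Phen, 21.3 to 26.8 in 2DG, 13.7 to 25.0 in GH+Phen and 22.5 to 28.2 in 2DG+Phen, nearly all of it CD68. Its part in the results below was not tested.

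The members are a varied set, and 2 of them were not annotated as protein-coding genes. Of the 198, 196 had a protein in GENCODE 44, with a median of 9 finger signatures and a range of 0 to 36. A KRAB signature was held by 77 of the 196, against 171 of 199 ZNF genes of chromosome 19. A narrower expression, the first written, which misses some known KRAB proteins, found 44 and 139. By either, the KRAB class is the smaller part of the members and the larger part of the chromosome 19 genes. Median GC content of the transcripts was 46.2% (33.4% to 66.3%), against 43.7% on chromosome 19 and 48.0% over all genes tested. Mean FPKM in DMSO had a median of 2.08 and ran from 0.341 to 23.6, against a median of 4.86 over all genes tested. Of the members, 163 were at or above 0.5 FPKM in all 18 libraries and 8 in only 3 to 5 of them, and 2, ZNF286B and ZNF518A, passed the level through DMSO libraries alone. Under the level in all 3 libraries of a group were 2 members in DMSO, 6 in GH, 11 in Phen, 8 in 2DG, 9 in GH+Phen and 21 in 2DG+Phen. The third highest FPKM was 0.509 for ZNF596 and 0.514 for ZNF469, just inside, and 0.490 for ZNF688 and 0.483 for ZNF341, just outside. Another gene overlaps 18 of the members on the same strand, among them ZNF395, ZNF596, ZNF660 and ZNF883, and reads of closely related ZNF copies may have been shared, so values of these genes are less certain.

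Promoter sequences are shown for members on which the results below turn: ZNF594 and ZNF287, with large falls, ZNF281, an abundant member with a fall in 2DG+Phen beyond the sum of the single effects, and ZNF593, with a rise. Each is the window of the RefSeq tables from 250 bases before to 50 bases after the gene's start on GRCh38.p14, 5′ to 3′ on the gene's strand, and capitals mark CCGGAAG (recognised by ETS factors), TGCGCA (the core of NRF1 sites) and CACGTG (an E box) on either strand. ZNF594 is at chr17:5191819-5192118 and ZNF287 at chr17:16569155-16569454, both on the minus strand. ZNF281 is at chr1:200409987-200410286 on the minus strand and ZNF593 at chr1:26169658-26169957 on the plus strand.
ZNF594: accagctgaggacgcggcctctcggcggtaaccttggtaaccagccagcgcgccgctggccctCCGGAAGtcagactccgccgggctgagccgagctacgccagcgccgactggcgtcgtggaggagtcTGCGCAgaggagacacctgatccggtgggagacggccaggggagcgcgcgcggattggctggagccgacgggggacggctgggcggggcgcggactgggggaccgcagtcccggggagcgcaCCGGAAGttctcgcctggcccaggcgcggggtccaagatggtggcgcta
ZNF287: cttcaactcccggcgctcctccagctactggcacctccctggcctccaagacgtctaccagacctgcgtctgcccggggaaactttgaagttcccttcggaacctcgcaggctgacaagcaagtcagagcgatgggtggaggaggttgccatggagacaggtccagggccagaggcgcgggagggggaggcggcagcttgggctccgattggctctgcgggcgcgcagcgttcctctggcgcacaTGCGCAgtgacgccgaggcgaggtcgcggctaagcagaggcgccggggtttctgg
ZNF281: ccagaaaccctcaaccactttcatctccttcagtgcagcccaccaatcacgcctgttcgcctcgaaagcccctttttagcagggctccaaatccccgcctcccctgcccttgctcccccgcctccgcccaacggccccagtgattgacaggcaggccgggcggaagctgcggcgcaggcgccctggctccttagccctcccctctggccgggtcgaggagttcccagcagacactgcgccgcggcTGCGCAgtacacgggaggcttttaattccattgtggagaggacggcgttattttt
ZNF593: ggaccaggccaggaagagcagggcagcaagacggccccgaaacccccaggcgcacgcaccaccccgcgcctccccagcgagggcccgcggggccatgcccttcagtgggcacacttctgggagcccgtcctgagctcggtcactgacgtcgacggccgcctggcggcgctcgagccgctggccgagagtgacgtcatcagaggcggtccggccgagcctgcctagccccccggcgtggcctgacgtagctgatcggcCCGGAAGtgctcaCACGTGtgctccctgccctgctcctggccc

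These windows are rich in CpG, with 37, 25, 21 and 30 CpG dinucleotides in that order. Of the members, 165 had a promoter in the table, with a median of 24 CpG against 27 over the 8828 genes tested that had one. CCGGAAG was found in 38.8% of member promoters (64 of 165), in 47.5% of those of ZNF genes on chromosome 19 and in 21.1% of all. TGCGCA was found in 17.6% of member promoters and 14.5% of all, GGGCGG (a GC box) in 65.5% and 71.9%, CCAAT in 44.2% and 37.7%, CACGTG in 7.27% and 10.5%, and TATAAA in 3.64% and 5.07%. Among the 47 members with a promoter that fell in 2DG+Phen against 2DG, 44.7% held CCGGAAG and 25.5% TGCGCA. Among the 40 with a promoter that rose in 2DG against DMSO, 16 held CCGGAAG and 4 held TGCGCA. These shares describe letters in a window and were not tested.

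A second set of promoters is shown because the genes are neighbours on chromosome 7 that responded to GH in the same direction. ZNF425 (chr7:149126275-149126574, minus strand) and ZNF786 (chr7:149090669-149090968, minus strand) share runs of at least 12 bases, marked in capitals.
ZNF425: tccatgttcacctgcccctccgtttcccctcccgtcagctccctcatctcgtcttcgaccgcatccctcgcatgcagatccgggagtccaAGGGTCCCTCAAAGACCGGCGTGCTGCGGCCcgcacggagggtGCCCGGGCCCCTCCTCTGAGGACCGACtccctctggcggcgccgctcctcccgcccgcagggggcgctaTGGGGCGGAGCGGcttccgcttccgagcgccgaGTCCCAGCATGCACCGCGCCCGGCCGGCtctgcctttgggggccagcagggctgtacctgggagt
ZNF786: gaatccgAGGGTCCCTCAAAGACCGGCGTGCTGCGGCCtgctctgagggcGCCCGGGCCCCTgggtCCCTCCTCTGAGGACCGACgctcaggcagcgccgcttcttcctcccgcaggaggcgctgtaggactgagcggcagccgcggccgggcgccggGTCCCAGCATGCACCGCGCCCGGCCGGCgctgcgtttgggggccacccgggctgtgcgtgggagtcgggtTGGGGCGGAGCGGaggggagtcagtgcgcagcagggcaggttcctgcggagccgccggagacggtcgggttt

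The shared runs cover 99 bases of the first and 103 of the second. Of 13530 pairs of member promoters, 549 shared any run of that length, and 5 had at least as many shared bases as ZNF425 and ZNF786. The call of ZNF786 in GH was lost when any of 5 libraries was left out, and in 2DG the genes moved in opposite directions. A link between the shared runs and the response was not tested.

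The members moved most in 2DG+Phen, where falls outnumbered rises, and did not move beyond the threshold in Phen alone. At a Benjamini-Hochberg adjusted p under 0.05 over all 12108 genes (limma), 36 members rose and 95 fell in 2DG+Phen against DMSO, that is 48.0% fell where 21.1% of all genes tested rose and 32.8% fell. In 2DG alone 50 rose and 55 fell, against 24.7% and 30.3% of all genes, so the members' shares of 25.3% and 27.8% were near the background. GH+Phen against DMSO gave 18 rises and 61 falls (9.4% and 18.6% of all genes), and GH alone gave 8 rises and 9 falls (2.29% and 3.63%). Phen alone gave 0 of either (0.339% and 0.206%). The median log2 fold change of the members was -0.21 in 2DG+Phen, -0.09 in GH+Phen, -0.03 in 2DG and in Phen and -0.01 in GH, where the median of all genes tested lay between -0.05 and 0.01. Log2 fold changes are on the scale of log2(FPKM + 0.1), which understates the change of low genes.

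**Figure D1:**
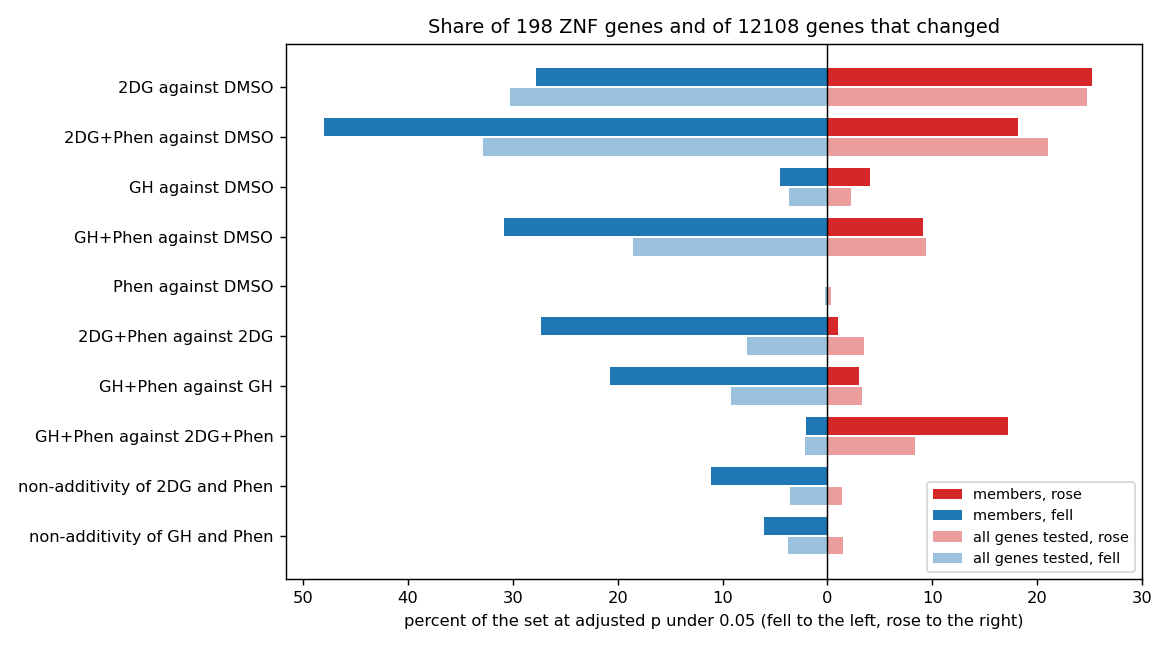
Bars give the percent of 198 ZNF genes (dark) and of 12108 genes tested (pale) that rose (right) or fell (left) at an adjusted p under 0.05, for 10 comparisons. In 2DG+Phen against DMSO 48.0% of the members fell against 32.8% of all genes, and in 2DG+Phen against 2DG 27.3% against 7.69%.

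The total over the members, on the scale of fragments, was also lowest in 2DG+Phen. In DMSO the members took 4718 to 4847 fragments per 1000000 mapped, in Phen 4833 to 4897, in 2DG 4663 to 4808 and in GH 4594 to 4706. GH+Phen libraries had 4435 to 4696, and 2DG+Phen libraries 4277 to 4332. The 2DG+Phen libraries were the lowest of all 18 and did not overlap any other group. Their mean of 4303 ± 27.4 (SD, n = 3) was 10.3% below that of DMSO, and the GH+Phen mean was 5.57% below it. This total is a share of the mapped fragments, so it depends on the other transcripts as well as on the members. A lower share can come from fewer expressing cells or less member RNA per cell, which bulk samples cannot tell apart. The ZNF genes of chromosome 19 fell more often than the members in 2DG, GH, GH+Phen and 2DG+Phen against DMSO, and in Phen 0 of either set were called. In 2DG+Phen 143 of these 200 genes fell and 16 rose, with a median of -0.57.

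**Figure D2:**
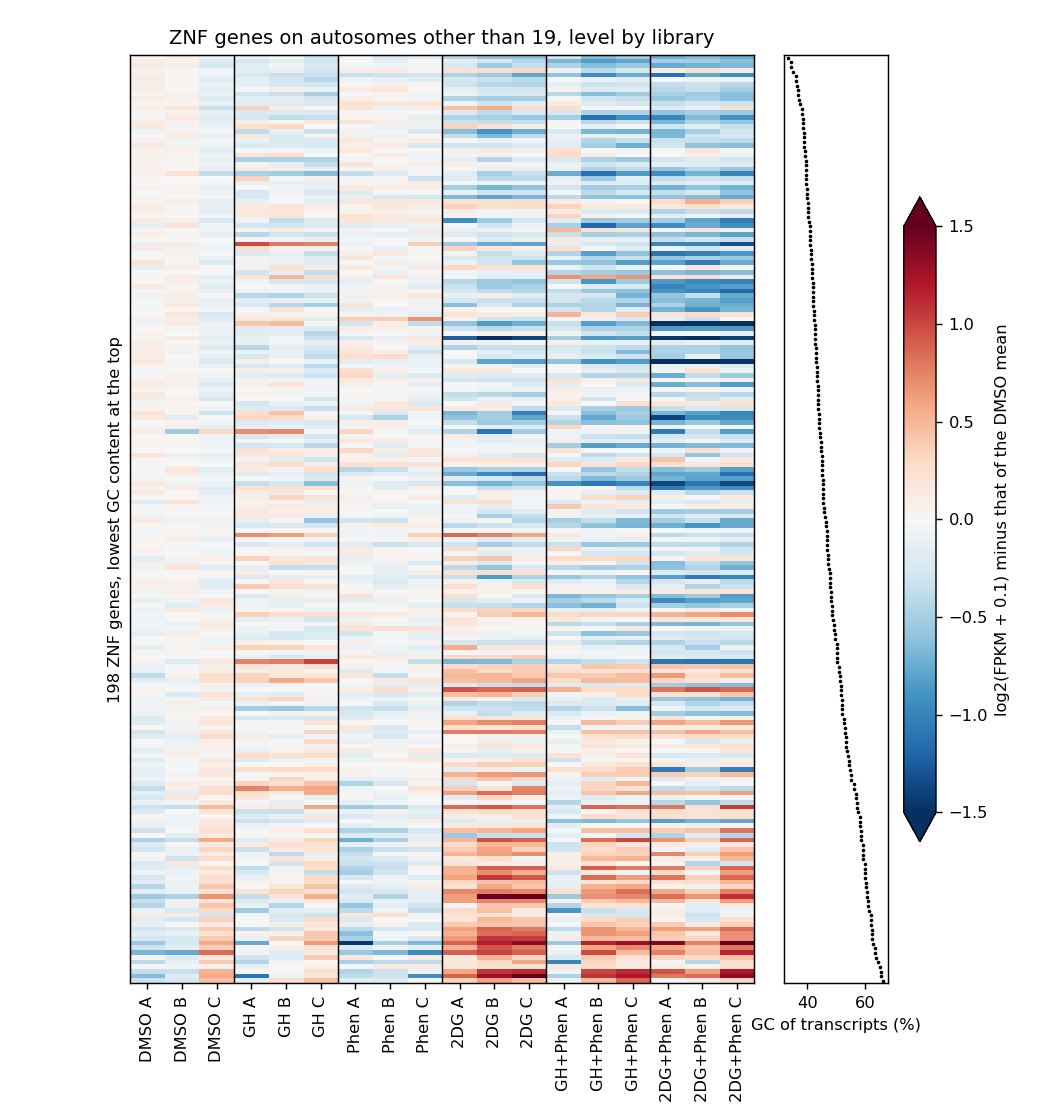
Each row is 1 of 198 ZNF genes ordered by GC content of its transcripts (% in the right panel), each column 1 of the 18 libraries, and colour gives log2(FPKM + 0.1) minus that of the gene's DMSO mean, from -1.5 to 1.5. Low-GC genes at the top are lower, and high-GC genes at the bottom higher, in 2DG, 2DG+Phen and 2 of the 3 GH+Phen libraries, while DMSO C and GH+Phen A differ from their groups.

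In 2DG+Phen, 5 members passed a stricter rule that the study used, a fold of at least 2 with a Bonferroni p of at most 0.05 and a mean FPKM of at least 1 in the higher group. They were ZNF658, ZNF594, ZNF287, ZNF200 and ZNF510, all lower, and 0.908% of all genes were called lower by that rule. Here and below the rule was applied to limma values and not to the study's own test, so its calls can differ from those of the study. ZNF658 (ENSG00000274349, chr9:66856426-66932141, plus strand) encodes a KRAB protein known as a transcriptional repressor in the response to zinc. Its FPKM was 1.19, 1.37 and 1.16 in DMSO, 0.788, 0.649 and 0.708 in 2DG, and 0.248, 0.340 and 0.331 in 2DG+Phen. The 3 groups did not overlap, and the 2DG+Phen libraries were the lowest of all 18. It fell by 0.71 ± 0.17 (SE) on the log2 scale in 2DG (adjusted p = 0.0038), by 1.72 in 2DG+Phen (adjusted p = 1.7e-06), and by 1.01 from 2DG to 2DG+Phen (adjusted p = 0.00086). With GH the levels were 1.68, 1.76 and 1.26, and with GH+Phen 0.955, 0.652 and 0.743. The log2 change with GH was 0.31 (adjusted p = 0.37), and from GH to GH+Phen it fell by 0.92 (adjusted p = 0.0022). A fall of 0.61 in GH+Phen against DMSO (adjusted p = 0.014) lost its call without DMSO B, GH+Phen B or GH+Phen C, with adjusted p of 0.064, 0.073 and 0.051. ZNF658B (ENSG00000198416), a near-identical copy elsewhere on chromosome 9, fell by 1.09 in 2DG+Phen, and reads of the pair may have been shared.

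ZNF594 (ENSG00000180626, chr17:5179536-5191883, minus strand), with 21 finger signatures and no KRAB signature, fell with 2DG and did not fall further with phenformin. Its FPKM was 1.61, 1.76 and 1.40 in DMSO, 0.616, 0.372 and 0.550 in 2DG, and 0.520, 0.384 and 0.540 in 2DG+Phen. All 6 libraries with 2DG lay below every library without it. The fall was 1.48 ± 0.17 on the log2 scale in 2DG (adjusted p = 2.3e-05), where it was the member called lower by the stricter rule (0.165% of all genes), and 1.54 in 2DG+Phen (adjusted p = 6.5e-06). Between the 2 groups with 2DG the difference was -0.06 ± 0.17 (adjusted p = 0.91). In GH+Phen it was 1.08, 0.831 and 0.862, a fall of 0.72 against DMSO (adjusted p = 0.006), and in GH alone 1.46, 1.56 and 1.25, with no call.

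ZNF287, ZNF200 and ZNF510 fell in steps, less with 2DG and more with 2DG+Phen. ZNF287 (ENSG00000141040, chr17:16551387-16569206, minus strand) was at 2.33, 2.14 and 1.77 FPKM in DMSO, at 1.72, 1.17 and 1.13 in 2DG, and at 0.628, 0.665 and 0.688 in 2DG+Phen. No library of these 3 groups overlapped the next group. It fell by 0.61 in 2DG (adjusted p = 0.0031), by 1.51 in 2DG+Phen (adjusted p = 9.7e-07), and by 0.79 from GH to GH+Phen (adjusted p = 0.0018). ZNF200 (ENSG00000010539, chr16:3222325-3236221, minus strand) fell in all 4 treatments that hold GH or 2DG: by 0.40 in GH (adjusted p = 0.044), 0.63 in 2DG, 0.98 in GH+Phen and 1.27 in 2DG+Phen. The call in GH was lost when any of 12 libraries was left out, at adjusted p of up to 0.20 without GH C. Its levels were 2.29, 1.99 and 1.93 in DMSO and 0.737, 0.917 and 0.747 in 2DG+Phen. ZNF510 (ENSG00000081386, chr9:96755865-96778129, minus strand), of the KRAB class, went from 2.58, 2.59 and 2.30 in DMSO to 1.30, 1.22 and 1.05 in 2DG+Phen, a fall of 1.01 ± 0.09 (adjusted p = 5.8e-07). None of these 3 genes moved beyond the threshold in Phen alone.

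**Figure D3:**
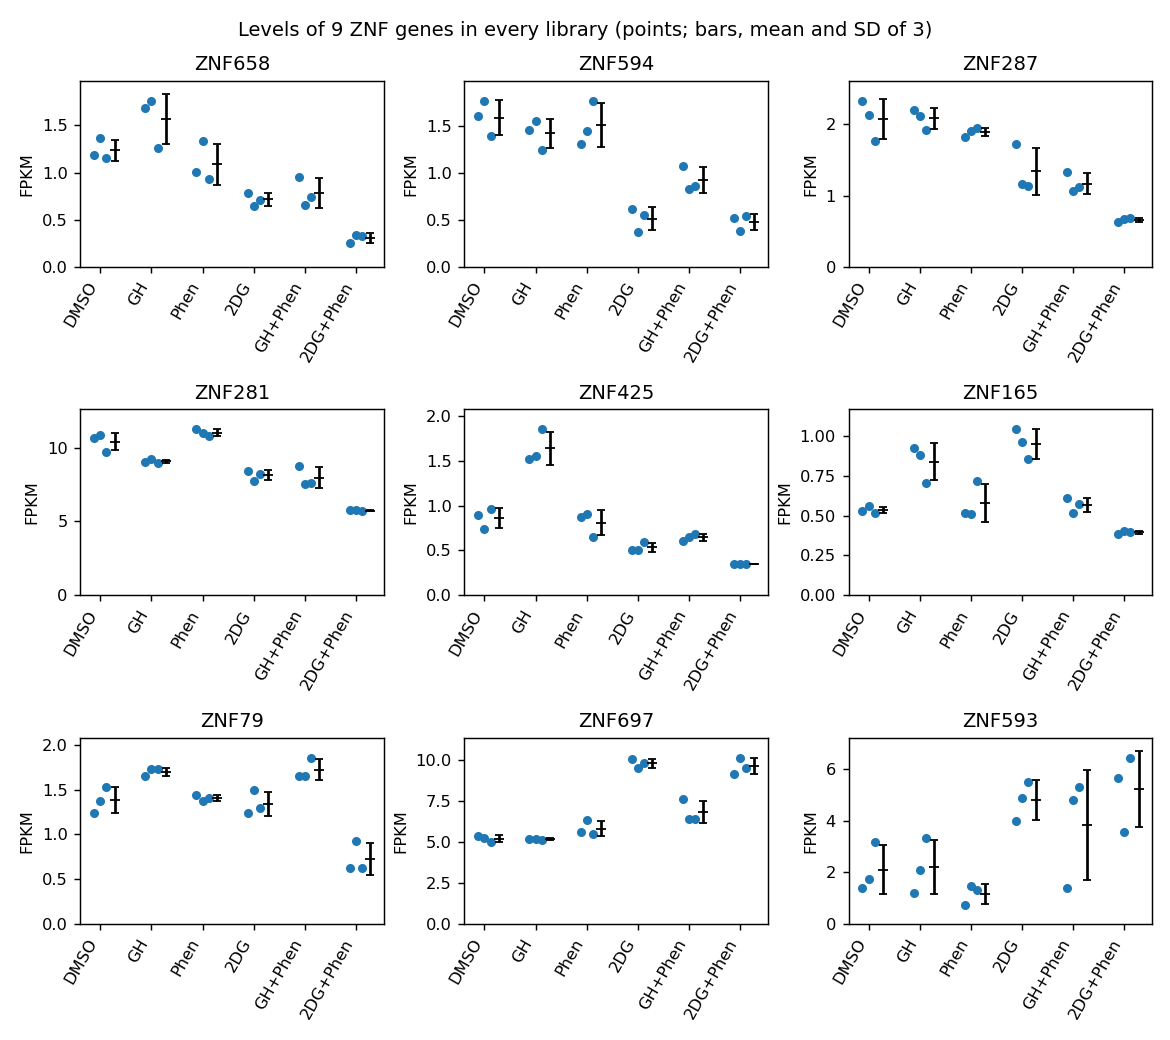
Points are FPKM in each of the 3 libraries of the 6 groups for 9 ZNF genes, and bars give the mean and SD of 3. ZNF658 is lowest in 2DG+Phen (0.248 to 0.340), ZNF594 is equally low in both groups with 2DG, ZNF425 is highest in GH (1.52 to 1.85), and ZNF697 is highest in both groups with 2DG (9.18 to 10.1).

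2DG alone raised and lowered members in near equal number, and the direction went with the GC content of the transcripts. Of the 24 members with over 60% GC, 16 rose and 0 fell, with a median log2 fold change of 0.65. Of the 31 members under 40%, 2 rose and 17 fell, with a median of -0.27. The other genes tested showed the same gradient, with medians of 0.84 over 60% GC and -0.24 under 40%. Over the 198 members Pearson's r between GC content and log2 fold change was 0.67, and over the 12022 genes with a GC value it was 0.69. These genes come from the same libraries, and the slope on GC content differed between libraries of 1 group, so how much of the gradient is technical was not tested. With the trend on GC content and length taken out of every library, 50 members rose and 49 fell. Here and below, counts with this trend taken out are of members alone. The share of all genes in that setting is not given, so these counts are not set against a background. Without DMSO A, 26 rose in place of 50.

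ZNF697 (ENSG00000143067) rose from 5.39, 5.24 and 4.996 FPKM in DMSO to 10.1, 9.54 and 9.80 in 2DG, and the groups did not overlap. The rise was 0.90 ± 0.07 on the log2 scale (adjusted p = 4.2e-07), and it was 0.87 in 2DG+Phen. With GH it stayed at 5.20, 5.18 and 5.11. ZNF592 rose by 0.69 (adjusted p = 0.00028), and ZNF692, known as a repressor of gluconeogenic genes that AMPK phosphorylates, by 0.75 (adjusted p = 0.00078). ZNF692 was at 1.83, 1.91 and 2.40 in DMSO and at 3.45, 3.54 and 3.46 in 2DG, and with the GC trend taken out its change was 0.09 (adjusted p = 0.48). Larger rises included genes of very high GC content and low level, in which DMSO C lay between the other DMSO libraries and 2DG. ZNF593, whose yeast counterpart acts in maturation of the large ribosomal subunit, had 1.39, 1.73 and 3.17 in DMSO and 3.99, 4.88 and 5.51 in 2DG, a log2 change of 1.23 ± 0.47 (adjusted p = 0.039). ZNF205 (1.31), ZNF513 (1.13) and ZNF598 (0.99), a ubiquitin ligase that senses collided ribosomes, had the same shape. All 4 lost the call with the GC trend taken out, at 0.46, 0.30, 0.28 and -0.04. All 4 also lost it without DMSO A, at adjusted p of 0.15, 0.10, 0.081 and 0.061, and without DMSO B. ZNF593 and ZNF205 further lost it without 2DG B or 2DG C, and ZNF513 without 2DG B. Beyond DMSO A, the adjusted p of these lost calls was 0.050 to 0.11. All 4 kept the call without DMSO C. Over the libraries left out in turn, the change reached at most 1.55 in ZNF593, 1.64 in ZNF205, 1.65 in ZNF513 and 1.28 in ZNF598.

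Falls in 2DG were led, after ZNF594, by ZNF75A, ZNF883, ZNF596, ZNF658 and ZNF334. ZNF75A (ENSG00000162086), on chromosome 16, was at 1.94, 2.14 and 1.82 FPKM in DMSO and at 1.14, 0.968 and 0.840 in 2DG, a fall of 0.94 ± 0.11 (adjusted p = 2.6e-05). ZNF334 fell by 0.71 (adjusted p = 5.7e-05) and ZNF883 by 0.76 (adjusted p = 0.0022). ZNF596 had a fall of 0.73 that was lost without DMSO A or 2DG C (adjusted p = 0.056 and 0.052). ZNF638, a member of higher level that recruits the HUSH complex to unintegrated retroviral DNA, fell from 10.5, 10.3 and 9.36 to 7.04, 6.19 and 6.60, by 0.60 ± 0.07 (adjusted p = 2.9e-05). Both ZNF75A and ZNF638 differed little between 2DG and 2DG+Phen, by 0.05 and -0.07.

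Of the members called on adding phenformin to 2DG, nearly all were lower. Of the 198, 2 rose and 54 fell, 27.3% of the members, where 3.53% of all genes tested rose and 7.69% fell. The ZNF genes of chromosome 19 fell more often still, with 1.5% that rose and 37.5% that fell, so the step is not particular to the members. This step hardly went with GC content. Over the 6 GC classes the members' median lay between -0.13 and -0.25, while that of the other genes lay between 0.02 and -0.14. Over the members r with GC content was 0.04. With the GC trend taken out, 10 rose and 62 fell, so that rises made up 13.9% of the calls in place of 3.57%. The count of 2 rises was 1 without 2DG B, 2DG C or 2DG+Phen B and 4 without GH C or GH+Phen A. The largest falls were those of ZNF165 (1.09), ZNF658 (1.01) and ZNF287 (0.90). ZNF217 and ZNF804A were the 2 that rose.

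**Figure D4:**
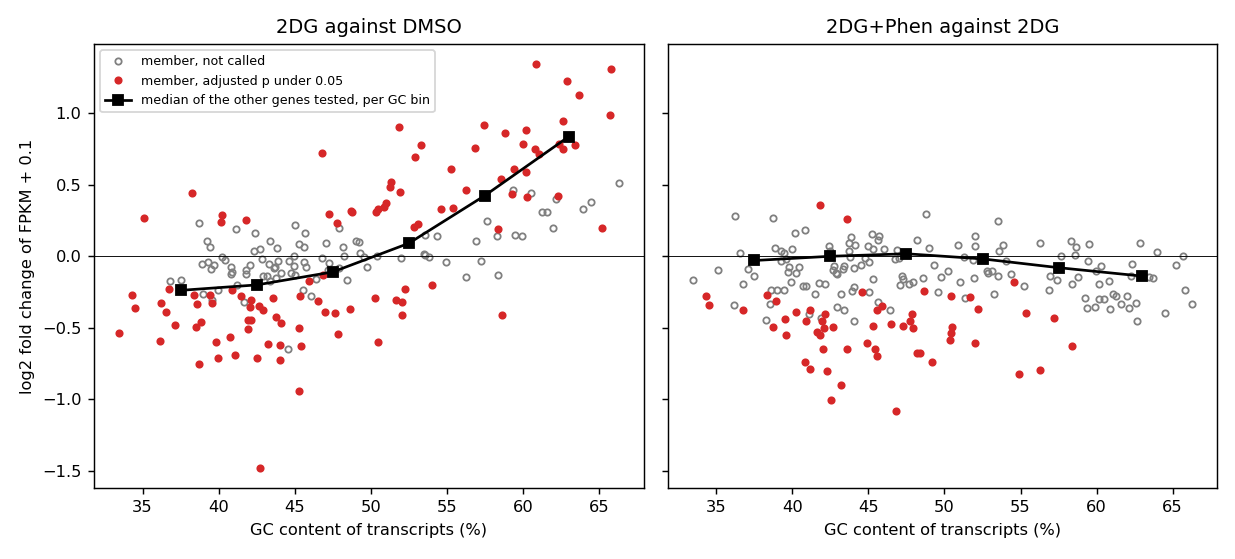
Log2 fold change against GC content of the transcripts (%) for 198 ZNF genes, filled red where called, in 2DG against DMSO (left) and 2DG+Phen against 2DG (right), with the median of the other genes per GC class as black squares. On the left members follow the rising line of the other genes (-0.24 to 0.84), and on the right most members lie below a nearly flat line.

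The addition of phenformin to GH, measured in libraries that the 2DG comparison does not use, also lowered members. Here 6 rose and 41 fell (20.7% of the members), where 3.3% of all genes rose and 9.22% fell. Of the ZNF genes of chromosome 19, 1.5% rose and 35.5% fell. Of the 54 members that fell on adding phenformin to 2DG, 26 also fell on adding it to GH, which is 48.1% of the first list and 63.4% of the second. Over all genes tested those shares were 48.9% and 40.8%, from lists of 931 and 1116. Of the 54, 50 had a value below 0 in GH+Phen against GH, with a median of -0.29, and 34 of them had a value below 0 in Phen against DMSO, with a median of -0.03. Over the members r between the additions was 0.52, and over all genes 0.24. Among the 26 were ZNF658, ZNF287, ZNF510, ZNF200, ZNF436 and ZNF684. ZNF684 (ENSG00000117010), of the KRAB class, went from 1.62, 1.32 and 1.54 in 2DG to 0.7998, 0.936 and 0.822 in 2DG+Phen, a fall of 0.74 ± 0.15 (adjusted p = 0.0034), and from 1.34, 1.33 and 1.41 in GH to 1.14, 0.659 and 0.894 in GH+Phen, a fall of 0.58 (adjusted p = 0.018). The latter was lost without GH A, GH B, GH C, GH+Phen B or GH+Phen C, at adjusted p of 0.051 to 0.084. The count of 41 fell to 23 without GH A, 22 without GH B, 22 without GH+Phen B and 24 without GH+Phen C, and to 4 in a fit of those groups alone. The count of 6 that rose was 25 without GH+Phen A and 2 without GH A. With the GC trend taken out, 28 rose and 43 fell, so that rises made up 39.4% of the calls in place of 12.8%, and median-of-ratios scaling gave 10 and 31 (24.4%).

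ZNF217, an amplified oncogene whose product works with CtBP and LSD1, was the highest member in DMSO and ran against the rest. Its FPKM was 24.7, 24.6 and 21.6 in DMSO, 19.8, 19.01 and 19.1 in 2DG and 23.2, 23.3 and 22.8 in 2DG+Phen. It fell by 0.29 in 2DG (adjusted p = 0.00058) and rose by 0.26 from 2DG to 2DG+Phen (adjusted p = 0.0032) and by 0.22 from GH to GH+Phen (adjusted p = 0.011). ZNF804A, known from association with psychiatric disorders, was at 2.61, 2.74 and 2.25 in DMSO and at 4.13, 3.86 and 4.08 in GH+Phen, with no overlap, a rise of 0.65 ± 0.09 (adjusted p = 9.3e-05). It rose by 0.36 from 2DG to 2DG+Phen (adjusted p = 0.015) and by 0.32 from GH to GH+Phen (adjusted p = 0.028). The first of these was lost without 2DG B, 2DG C or 2DG+Phen B (adjusted p = 0.063 to 0.070), and the second without GH A, GH C, GH+Phen B or GH+Phen C (adjusted p = 0.056 to 0.14).

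A non-additivity term tests whether a combination differs from the sum of its single effects. For 2DG and Phen it was below 0 in 22 members (11.1%) and above 0 in 0, where 1.38% of all genes were above and 3.59% below at the threshold. Of the ZNF genes of chromosome 19, 0.5% were above and 17.5% below. At an unadjusted p under 0.05 there were 71 members, the median over the members was -0.16, and over all genes it was 0.00. With the GC trend taken out 6 were above and 46 below, so that 11.5% were above in place of 0, and without GH+Phen A, which is in none of these groups, 35 were below. ZNF165 (ENSG00000197279), a cancer-testis antigen gene on chromosome 6, reversed its direction: 0.530, 0.559 and 0.520 FPKM in DMSO, 1.04, 0.962 and 0.856 in 2DG and 0.385, 0.405 and 0.395 in 2DG+Phen. Its libraries in 2DG lay above, and those in 2DG+Phen below, every DMSO library. It rose by 0.72 ± 0.13 in 2DG (adjusted p = 0.00091), the term was -1.17 ± 0.19 (adjusted p = 0.0019), and the fall of 0.36 against DMSO in 2DG+Phen (adjusted p = 0.035) was lost without any of DMSO A, DMSO B or the 2DG+Phen libraries (adjusted p up to 0.096). ZNF281 (ENSG00000162702), a regulator of pluripotency and of epithelial-mesenchymal transition, was at 10.7, 10.8 and 9.74 in DMSO, 8.39, 7.78 and 8.24 in 2DG and 5.74, 5.78 and 5.71 in 2DG+Phen. It stayed at 11.2, 11.03 and 10.8 in Phen, and its term was -0.58 ± 0.08 (adjusted p = 0.00058). ZNF398, named after its values were seen, had the smallest adjusted p among the members (3.0e-05, term -0.65). The terms of ZNF436 (-0.54) and ZNF510 (-0.65) had adjusted p of 0.0080 and 0.0058.

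ZNF79 (ENSG00000196152) changed in 2DG+Phen and was not called in any other treatment. Its FPKM was 1.25, 1.38 and 1.54 in DMSO, 1.24, 1.497 and 1.29 in 2DG, 1.44, 1.37 and 1.41 in Phen and 0.621, 0.927 and 0.623 in 2DG+Phen. The 2DG+Phen libraries lay below every other library. It fell by 0.87 ± 0.12 (adjusted p = 6.5e-05), with a non-additivity term of -0.85 (adjusted p = 0.010). In GH+Phen it was at 1.66, 1.66 and 1.86, so that the combinations differed by 1.17 (adjusted p = 2.6e-05), the difference called higher by the stricter rule (0.107% of all genes). Between the combinations, 34 members (17.2%) were higher in GH+Phen and 4 lower, where 8.33% of all genes were higher and 2.16% lower. Of the ZNF genes of chromosome 19, 20.0% were higher and 3.0% lower. Without 2DG+Phen C 22 members were higher, and with the GC trend taken out 37 were higher and 15 lower (71.2% higher in place of 89.5%).

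GH alone moved few members, and the rises included neighbours on chromosome 7. ZNF425 (ENSG00000204947, chr7:149102784-149126346, minus strand), of the KRAB class, was at 0.896, 0.736 and 0.958 FPKM in DMSO and at 1.52, 1.56 and 1.85 in GH, and the groups did not overlap. It rose by 0.86 ± 0.13 (adjusted p = 0.0014) and went down again in GH+Phen, to 0.603, 0.654 and 0.683, a fall of 1.22 from GH (adjusted p = 3.0e-05) that was the member called lower by the stricter rule in that comparison (0.0496% of all genes). In 2DG it fell by 0.60 and in 2DG+Phen by 1.09, so GH and 2DG moved it in opposite directions. ZNF786 (ENSG00000197362, chr7:149069643-149090782), whose start lies 35564 bases away, was at 0.951, 1.31 and 1.48 in DMSO and at 2.16, 1.85 and 1.92 in GH, a rise of 0.64 ± 0.16 (adjusted p = 0.025). That call was lost without DMSO A, DMSO B or any GH library, at adjusted p of 0.052 to 0.12. Unlike ZNF425, it rose in 2DG, by 0.46 (adjusted p = 0.024), a call lost without DMSO A or 2DG C (adjusted p = 0.13 and 0.12) and with the GC trend taken out, where the change was 0.12. ZNF658B rose in GH from 0.547, 0.667 and 0.575 to 1.27, 1.10 and 1.07, by 0.84 ± 0.15 (adjusted p = 0.0039), while ZNF658 itself had a change of 0.31 that was not called. ZNF165 rose by 0.55 (adjusted p = 0.024) and lost the call without any DMSO library, GH A or GH B (adjusted p up to 0.10).

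Falls in GH were small, of at most 0.49 on the log2 scale. ZNF394 (ENSG00000160908) was at 5.13, 5.04 and 5.61 FPKM in DMSO and at 3.66, 3.55 and 3.91 in GH, with no overlap, a fall of 0.49 ± 0.08 (adjusted p = 0.0023). ZNF33A was at 5.04, 5.08 and 4.51 and at 3.46, 3.47 and 3.53, a fall of 0.47 (adjusted p = 0.0042). ZNF33B, a close paralog on the same chromosome with which it may share reads, fell by 0.34 (adjusted p = 0.014), ZNF138 by 0.37 (adjusted p = 0.011) and ZNF436 by 0.32 (adjusted p = 0.020). ZNF33B lost the call without DMSO A, DMSO B or GH A, ZNF138 without DMSO B or GH C, and ZNF436 without DMSO A, DMSO B or GH C (adjusted p of 0.060 to 0.10). The GH counts are few and unstable: falls numbered 4 without DMSO A, 2 without DMSO B, 14 without DMSO C, 5 without 2DG C, 4 without GH A, 3 without GH C, 5 without Phen C and 21 without GH+Phen A, and rises 3 without DMSO A or GH B, 4 without DMSO B or GH A and 5 without GH C. With the GC trend taken out 15 rose and 28 fell (34.9% rises in place of 47.1%), and with quantile normalization 5 and 2 (71.4%).

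The non-additivity of GH and Phen was below 0 in 12 members (6.06%) and above 0 in 0. Those shares were 3.73% and 1.45% of all genes, and 10.0% and 0.0% of ZNF genes on chromosome 19. At an unadjusted p under 0.05 there were 53 members. ZNF425 (-1.13 ± 0.19, adjusted p = 0.0033) and ZNF658B (-1.15, adjusted p = 0.0071) led, both raised by GH alone and not by GH+Phen. For ZNF638 the term was -0.49 (adjusted p = 0.014). These counts turned on single libraries: 42 were below and 20 above without GH+Phen A, 1 was above without DMSO A, 3 to 5 were below without DMSO C, GH A, GH B, Phen A, GH+Phen B or GH+Phen C, and 14 above and 20 below were found with the GC trend taken out (41.2% above in place of 0).

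Phen alone gave no call among the members. None passed the threshold in limma, 15 of 198 had an unadjusted p under 0.05 (1287 of 12108 over all genes), and limma voom on the recovered fragments also called 0. The members' median was -0.03, and the largest shift in a GC class was -0.17, over 60% GC, where the other genes had -0.25. Without GH B, GH C or GH+Phen A 1 member was called.

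Falls led in GH+Phen against DMSO, which has the same control libraries as the other comparisons with DMSO. ZNF200 fell by 0.98 ± 0.11 (adjusted p = 1.5e-05), ZNF597 by 0.89, ZNF107 by 0.83, ZNF684 by 0.82 and ZNF287 by 0.78. The value of ZNF518A (-0.77) is a description, since that gene passed the level through DMSO libraries alone, which favours a fall. ZNF436 fell from 6.55, 6.39 and 6.03 FPKM in DMSO to 4.41, 3.52 and 3.70, by 0.70 ± 0.08 (adjusted p = 1.2e-05), and to 3.84, 3.95 and 3.95 in 2DG+Phen. GH+Phen A was the highest of its group in ZNF436, ZNF107 and ZNF684, between GH+Phen and DMSO. Rises numbered 18, of which ZNF804A was the clearest. That count was 34 without DMSO C, 41 without GH+Phen A and 47 without both, and 9 to 11 without DMSO A, DMSO B, GH+Phen B or GH+Phen C. Falls numbered 43 to 77 over the libraries left out, and 16 in a fit of the compared groups alone. Rises in 2DG+Phen were fewer without DMSO A (11), DMSO B (16), 2DG+Phen A (19) or 2DG+Phen C (12), where 36 stood above.

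By protein class, members with a KRAB signature were lower in 2DG+Phen. Of 77, 8 rose and 50 fell (64.9%), with a median of -0.40. Of the 119 without one, 28 rose (23.5%) and 44 fell (37.0%), with a median of -0.03. Over all genes tested 21.1% rose and 32.8% fell, so the class without the signature was near those shares. KRAB members also had a lower GC content (median 43.9% against 48.2%). Among members of up to 45% GC, 33 of 42 with and 24 of 41 without the signature fell, with medians of -0.54 and -0.32. These were 78.6% and 58.5%, where 63.5% of other genes under 40% GC and 54.4% at 40 to 45% fell. The class without the signature was thus near the share of other genes of like GC content. With the GC trend taken out the whole classes had 43 and 44 falls and medians of -0.29 and -0.08. On adding phenformin to 2DG, 29 of the KRAB members fell and 0 rose, against 25 and 2 of the others. Over all genes tested 7.69% fell and 3.53% rose in that step. In 2DG alone the KRAB class had 12 rises (15.6%) and 25 falls (32.5%), with a median of -0.14, beside 24.7% and 30.3% of all genes. More fingers went the same way: 49 of 87 members with 10 or more fell in 2DG+Phen, 28 of 66 with 5 to 9, and 17 of 43 with fewer. These were 56.3%, 42.4% and 39.5%, where 32.8% of all genes fell. By the narrower KRAB expression 30 of 44 fell in 2DG+Phen (68.2%, median -0.41), against 64 of the other 152 (42.1%, median -0.12). These are counts, and the classes differ in GC content and in how many neighbours they have.

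Of the members, 102 start within 500000 bases of another member, in 28 runs of at least 2 and 8 of at least 5. In 2DG+Phen, 16 of the 102 rose and 59 fell, against 20 and 36 of the 96 without a neighbour. The latter were 20.8% and 37.5%, where 21.1% of all genes tested rose and 32.8% fell. Runs differed. The run of 7 on chromosome 7 from ZNF736 to ZNF92 (chr7:64307459-65401135), 6 of them KRAB genes, has a median GC content of 36.8%, and its genes were all called lower in both combinations: 7 of 7 in 2DG+Phen (-0.83 to -0.49) and 7 of 7 in GH+Phen (-0.83 to -0.39), with 4 in 2DG and 2 in GH. Of the other genes under 40% GC, 63.5% fell in 2DG+Phen, 30.3% in GH+Phen, 56.1% in 2DG and 3.80% in GH. ZNF107 and ZNF138 of this run were at 3.36, 3.65 and 2.92, and at 4.21, 4.42 and 3.89 FPKM in DMSO. In 2DG+Phen they were at 1.64, 2.07 and 1.74, and at 2.96, 2.83 and 2.66, below every DMSO library. Each of the 6 genes of the run on chromosome 3 from ZNF445 to ZNF502 (chr3:44431720-44723831) fell in 2DG+Phen (-0.79 to -0.23). ZNF445 helps to keep genomic imprints. Of the 6, 5 also fell from 2DG to 2DG+Phen, and 4 were below the sum of the single effects. The median GC content of this run is 42.9%. Among other genes of 40 to 45% GC, 54.4% fell in 2DG+Phen, 8.93% fell from 2DG to 2DG+Phen and 4.88% were below that sum. The run from ZNF605 to ZNF268 at the end of chromosome 12 (chr12:132918308-133214831) has 6 genes, all of the KRAB class. Among them is ZNF10, the gene whose KRAB domain is used in CRISPR interference. It had 4 falls and 0 rises in 2DG+Phen as a run, at a median GC content of 43.1%, beside the 54.4% of other genes of 40 to 45% GC that fell. The run on chromosome 16 from ZNF205 to ZNF597 (chr16:3112560-3443542) was mixed, with 4 falls and 1 rise in 2DG+Phen, and its GC contents ran from 39.6% to 65.8%. In the 9 genes from ZNF786 to ZNF862 (chr7:149069643-149867479), with a median GC of 57.7%, 5 rose and 1 fell in 2DG, and 3 rose and 2 fell in 2DG+Phen. Among other genes of 55 to 60% GC, 57.9% rose and 1.85% fell in 2DG, and 42.5% and 3.87% in 2DG+Phen. Genes of 1 run are neighbours and may not be independent.

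**Figure D5:**
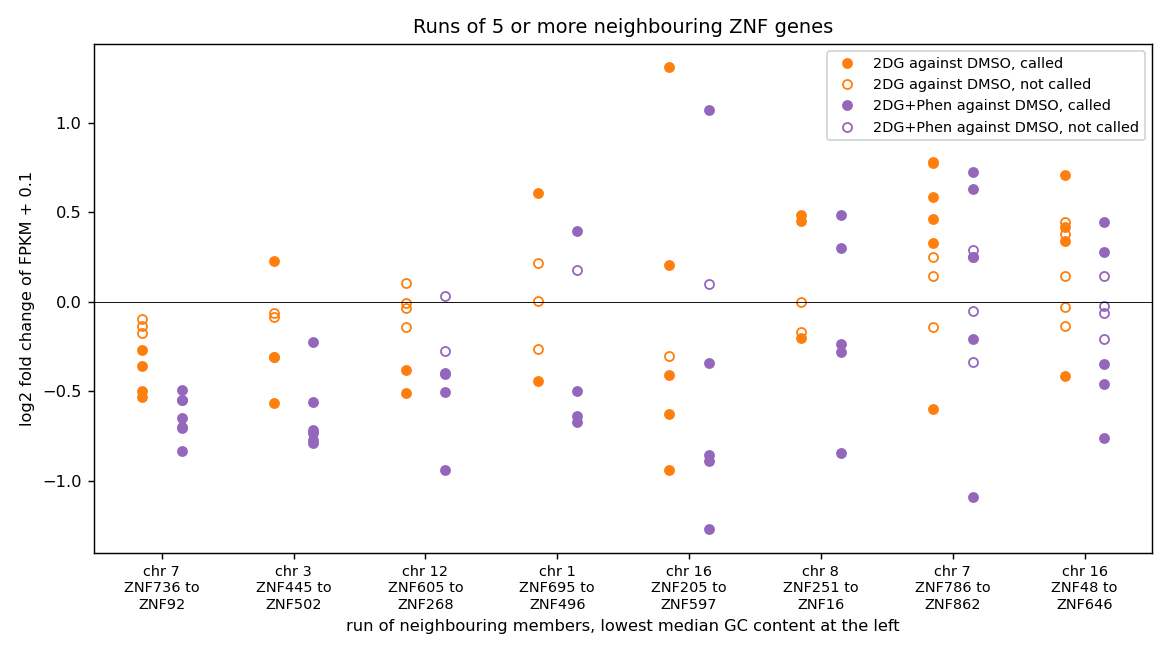
Log2 fold change of each gene in the 8 runs of 5 or more neighbouring ZNF genes, ordered by median GC content of the run, in 2DG (orange) and 2DG+Phen (purple) against DMSO, filled where called. The run from ZNF736 to ZNF92 at the left has all 7 genes at -0.49 or lower in 2DG+Phen, and the runs of high GC content at the right hold rises and falls.

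Members with a role outside KRAB repression were followed by role, from lists that also hold some genes that are not members. Of 8 tested genes in RNA, ribosome and quality control, 3 rose and 2 fell in 2DG, where 24.7% and 30.3% of all genes did, and 2 rose and 4 fell in 2DG+Phen, where 21.1% and 32.8% did. ZNF207 (BuGZ), a spindle protein that also binds Bub3, was at 21.5, 21.1 and 20.4 FPKM in DMSO and at 18.4, 18.8 and 18.6 in 2DG+Phen, with no overlap, a fall of 0.17 ± 0.04 (adjusted p = 0.0030). With the GC trend taken out the change had the opposite sign, at 0.02, and was not called. ZNF326, of the DBIRD complex that couples elongation to splicing, fell by 0.39 in 2DG (adjusted p = 0.00044). ZNF622, related to yeast factors of the large ribosomal subunit, rose by 0.23 in 2DG (adjusted p = 0.039), and lost the call without DMSO A, DMSO B or any 2DG library. ZNF451, a SUMO ligase, went from 4.16, 4.004 and 3.65 in DMSO to 2.61, 2.90 and 2.61 in 2DG+Phen, a fall of 0.53 ± 0.09 (adjusted p = 0.00043), and it was 3.88, 3.63 and 3.58 in 2DG.

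The partners of ZMYND8 differed among themselves. ZNF592 rose in 2DG, ZNF687 had a change of 0.46 (adjusted p = 0.070), and ZNF532 stayed within 7.13 to 7.65 FPKM in all 18 libraries. Of the partners of histone methyltransferases and CtBP, ZNF644, which works with G9a and GLP, was at 14.6, 14.1 and 11.8 in DMSO and at 9.81, 9.47 and 9.55 in 2DG, a fall of 0.48 ± 0.09 (adjusted p = 0.00074). ZNF516, a partner of CtBP and LSD1, lay between 1.28 and 1.67 in all libraries and was not called. ZNF462 rose by 0.61 in 2DG+Phen (adjusted p = 0.00049), from 0.571, 0.601 and 0.593 to 0.883, 0.940 and 1.03. Of 10 promoter-binding regulators tested, 5 rose and 3 fell in 2DG, and 4 rose and 2 fell in 2DG+Phen, beside 24.7% and 30.3%, and 21.1% and 32.8%, of all genes. On so few genes these counts are not set apart from all genes. ZNF24, a repressor of VEGFA, fell in both, from 12.1, 12.4 and 11.1 in DMSO to 10.3, 9.05 and 10.1 in 2DG and 7.90, 8.29 and 8.08 in 2DG+Phen, and the fall of 0.55 ± 0.06 in 2DG+Phen (adjusted p = 9.3e-06) was larger than that of 0.27 in 2DG, by 0.27 ± 0.06 (adjusted p = 0.0096, and 0.052 without 2DG A). ZNF384, a fusion partner in leukaemia, rose by 0.33 in 2DG (adjusted p = 0.00038), and lost the call with the GC trend taken out (0.09). ZNF395, a hypoxia-inducible gene, rose by 0.19 in 2DG (adjusted p = 0.033), reversed to -0.30 with that trend taken out, and lost the call without DMSO A, DMSO B, 2DG B or 2DG C.

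The other abundant members differed in how far they moved. ZNF664 was at 24.1, 23.3 and 22.0 FPKM in DMSO and at 19.4, 20.2 and 19.4 in 2DG+Phen, a fall of 0.23 ± 0.06 (adjusted p = 0.0042) that lost its call with the GC trend taken out (-0.09). ZNF655 ran from 14.6 to 18.7 over all libraries and was not called in any comparison. ZNF770 fell from 15.5, 14.5 and 13.1 to 10.8, 11.1 and 10.1 in 2DG+Phen, by 0.42 ± 0.08 (adjusted p = 0.00074), and by 0.08 with that trend taken out (adjusted p = 0.037).

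The corepressor genes that KRAB proteins rely on were called in shares near those of all genes in both groups with 2DG. A list of TRIM28, SETDB1, HP1, NuRD, HUSH and DNA methylation genes held 29 tested genes. Of these 9 rose and 11 fell in 2DG (24.7% and 30.3% of all genes). In 2DG+Phen 7 rose and 11 fell (21.1% and 32.8%), and in GH+Phen 3 and 4 (9.4% and 18.6%). None was called in GH (2.29% and 3.63%) or in Phen (0.339% and 0.206%). On adding phenformin to 2DG, MPHOSPH8 rose by 0.26 (adjusted p = 0.0057) and 0 fell, where 3.53% of all genes rose and 7.69% fell. TRIM28 (on chromosome 19) had mean FPKM of 24.7 in DMSO and 48.5 in 2DG, a change of 1.02 (adjusted p = 0.0084) that was 0.34 with the GC trend taken out (adjusted p = 0.0033, its GC content is 61.1%). SETDB1 was at 4.63 in both groups. CBX5, which encodes HP1 alpha, fell by 0.45 in 2DG (adjusted p = 4.6e-05) and by 0.56 in 2DG+Phen (adjusted p = 2.8e-06), and still fell by 0.39 there with the trend taken out. Of related zinc finger families, all 7 ZKSCAN genes fell in 2DG+Phen with a median of -0.83, and 9 of 15 ZSCAN genes fell and 0 rose. Of 30 ZBTB genes 6 rose and 12 fell there, where 21.1% of all genes rose and 32.8% fell.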

How the data were processed

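RNA of T98G cells was sequenced as stranded paired-end mRNA libraries, which the authors mapped and counted in CLC Genomics Workbench on GRCh38 with Ensembl genes and deposited as FPKM. Columns were mapped to samples by name, and 0 columns of per-sample values were left unmapped. Values were log2(FPKM + 0.1), tested on genes of at least 0.5 FPKM in at least 3 libraries in limma 3.58.1 (R 4.3.3) with a mean-variance trend, the 6 groups as model terms (12 residual degrees of freedom), with Benjamini-Hochberg adjustment. A further 3 contrasts were fitted and are not described. The p-values rest on the spread of libraries within groups, pooled over the 6 groups and moderated across genes. Libraries outside a comparison therefore affect its p-values. FPKM steps gave whole fragments for 25151 of 25158 genes above 0 (99.972%, tolerance 0.001), which were tested in limma voom as an alternative that called 0 members in Phen. GC content and proteins came from GENCODE 44, exon length from the FPKM steps, and promoters from RefSeq (GRCh38.p14). KRAB signatures were found with an expression that was widened from the one first written by looking at sequences alone, and the first was added as an alternative after the data were seen. Members and lists were chosen with earlier results of these data known. Named genes are ZNF658 and ZNF594, up to 6 falls and 4 rises per treatment among called members that do not overlap DMSO, those past the thresholds of the study, the 5 of highest level in DMSO, up to 4 per role, up to 5 corepressors per comparison by adjusted p and the members and genes next to the level filter. Alternatives were other pseudocounts (0.01 and 1), filters, scalings, the GC and length trend, the libraries in the fit, a replicate block and each library left out. Python 3.11.15 with numpy 2.4.6, pandas 2.3.3 and matplotlib 3.10.9 was used, and the fits were tested on simulated data.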

Additional observations from a re-analysis of the deposited data

Results flagged for a closer look

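In tests of the interaction term, the effect of phenformin in the presence of 2DG or GH differed from its effect alone in some members. The agents were not compared with each other in these tests. Against the sum of the single effects, 22 members were lower in 2DG+Phen and 12 in GH+Phen. For 2DG and Phen the term was -1.17 in ZNF165, -0.87 in ZNF786, -0.85 in ZNF79, -0.78 in ZNF287, -0.65 in ZNF510, -0.58 in ZNF281 and -0.54 in ZNF436. The terms of ZNF786 (adjusted p = 0.034 in limma) and ZNF287 (adjusted p = 0.031) lost the call when any of 9 libraries was left out, at adjusted p of up to 0.090 without Phen C and 0.079 without 2DG+Phen A. For GH and Phen it was -1.15 in ZNF658B, -1.13 in ZNF425, -0.49 in ZNF638 and -0.45 in ZNF510, and that of ZNF510 lost the call without any of 15 libraries, at adjusted p of up to 0.14. The term of GH and Phen was below 0 in 42 members without GH+Phen A, whose slope on GC content differed from that of the other GH+Phen libraries. Its part in the count was not tested.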

How the results depend on the processing

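The counts of members were recomputed under each alternative, and those that moved by over 1.5 times are given, with the cause not tested where the construction (fewer libraries or genes) does not show it. Without a filter on low values there were 21 rises in 2DG+Phen against DMSO, 4 rises in GH against DMSO, 5 falls in GH against DMSO, 3 rises in GH+Phen against GH, 7 below the sum of GH and Phen. Median-of-ratios scaling gave 10 rises in GH+Phen against GH. Quantile normalization gave 5 rises in GH against DMSO, 2 falls in GH against DMSO, 32 falls in 2DG+Phen against 2DG, 27 falls in GH+Phen against GH, 18 rises in GH+Phen against 2DG+Phen, 13 below the sum of 2DG and Phen. With the trend on GC content and length taken out there were 15 rises in GH against DMSO, 28 falls in GH against DMSO, 2 rises in Phen against DMSO, 1 falls in Phen against DMSO, 10 rises in 2DG+Phen against 2DG, 28 rises in GH+Phen against GH, 15 falls in GH+Phen against 2DG+Phen, 6 above the sum of 2DG and Phen, 46 below the sum of 2DG and Phen, 14 above the sum of GH and Phen, 20 below the sum of GH and Phen. A fit of the compared groups alone gave 21 rises in 2DG+Phen against DMSO, 0 rises in GH against DMSO, 2 falls in GH against DMSO, 1 rises in GH+Phen against DMSO, 16 falls in GH+Phen against DMSO, 0 rises in GH+Phen against GH, 4 falls in GH+Phen against GH, 2 rises in GH+Phen against 2DG+Phen, 0 falls in GH+Phen against 2DG+Phen, 1 above the sum of 2DG and Phen, 6 below the sum of GH and Phen. Without DMSO C and GH+Phen A together there were 30 falls in GH against DMSO, 47 rises in GH+Phen against DMSO, 4 rises in 2DG+Phen against 2DG, 35 rises in GH+Phen against GH, 2 above the sum of 2DG and Phen, 12 above the sum of GH and Phen, 29 below the sum of GH and Phen. The fit with a replicate block gave 22 falls in GH against DMSO, 29 rises in GH+Phen against DMSO, 11 rises in GH+Phen against GH, 1 above the sum of 2DG and Phen, 6 above the sum of GH and Phen, 21 below the sum of GH and Phen. The replicate block with that trend taken out gave 14 rises in GH against DMSO, 31 falls in GH against DMSO, 28 rises in GH+Phen against DMSO, 2 rises in Phen against DMSO, 1 falls in Phen against DMSO, 8 rises in 2DG+Phen against 2DG, 31 rises in GH+Phen against GH, 15 falls in GH+Phen against 2DG+Phen, 6 above the sum of 2DG and Phen, 46 below the sum of 2DG and Phen, 16 above the sum of GH and Phen, 23 below the sum of GH and Phen. The recovered fragments in limma voom gave 4 rises in 2DG+Phen against 2DG, 1 above the sum of 2DG and Phen. The thresholds of the study were applied to limma values and not to the study's own test, so the counts that follow are not the study's calls. The thresholds of the study gave 0 rises in 2DG against DMSO, 1 falls in 2DG against DMSO, 0 rises in 2DG+Phen against DMSO, 5 falls in 2DG+Phen against DMSO, 0 rises in GH against DMSO, 0 falls in GH against DMSO, 0 rises in GH+Phen against DMSO, 0 falls in GH+Phen against DMSO, 0 rises in 2DG+Phen against 2DG, 0 falls in 2DG+Phen against 2DG, 0 rises in GH+Phen against GH, 1 falls in GH+Phen against GH, 1 rises in GH+Phen against 2DG+Phen, 0 falls in GH+Phen against 2DG+Phen. Leaving out each library in turn gave 40 to 61 falls in 2DG against DMSO, 40 to 61 falls in 2DG+Phen against 2DG, 85 to 96 falls in 2DG+Phen against DMSO, 2 to 21 falls in GH against DMSO, 3 to 5 falls in GH+Phen against 2DG+Phen, 43 to 77 falls in GH+Phen against DMSO, 22 to 56 falls in GH+Phen against GH, 0 to 0 falls in Phen against DMSO, 18 to 35 below the sum of 2DG and Phen, 3 to 42 below the sum of GH and Phen, 26 to 55 rises in 2DG against DMSO, 1 to 4 rises in 2DG+Phen against 2DG, 11 to 39 rises in 2DG+Phen against DMSO, 3 to 9 rises in GH against DMSO, 22 to 36 rises in GH+Phen against 2DG+Phen, 9 to 41 rises in GH+Phen against DMSO, 2 to 25 rises in GH+Phen against GH, 0 to 1 rises in Phen against DMSO, 0 to 1 above the sum of 2DG and Phen, 0 to 20 above the sum of GH and Phen. Of 190 named results, 78 kept direction and call in every setting, and 12 of 5870 values were reversed, all with the GC and length trend taken out, with and without the block: ZNF598 (-0.038), ZNF770 (0.025) and ZNF395 (-0.30) in 2DG, and ZNF33A (0.040), ZNF207 (0.018) and ZNF384 (-0.014) in 2DG+Phen. In 589 values the call was lost, most often in fits of the compared groups alone (84 of 190). Same-lettered libraries of different groups correlated with a median r of 0.23 (-0.43 to 0.59, 45 pairs) in their deviations from the group means. Others correlated with a median of -0.12 (90 pairs). Because the deviations within each group sum to 0, this second value largely follows from the first and is no separate evidence. By the median of 0.23, same-lettered libraries tended to deviate together, and the main fit did not take the letters as pairs. The replicate block kept all 190 named results but moved counts, with falls in GH against DMSO going from 9 to 22. Members under about 10 fragments in a library are limited by counting error, and for those that overlap other genes the assignment of reads is less certain.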
